A study of Mus musculus with 7 samples.

Results

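The distal nephron genes examined here were the 10 rows of the kidney RNA-seq tables, of 24328 gene symbols in all, whose symbol is Slc12a3, Pvalb, Trpm6, Calb1, Trpv5, Scnn1a, Scnn1b, Scnn1g, Nr3c2 or Hsd11b2. They were chosen by name for their roles in sodium, magnesium and calcium transport, with earlier results of these data known. LBR-null mice, homozygous for the Lbr ic-J loss-of-function allele (Lbric-J/ic-J), were compared with a WT littermate (Lbr+/+). All mice were on the C57BL/6J background and 4 weeks old. LBR, the lamin B receptor, sits in the inner membrane of the nucleus and helps to hold compacted chromatin at the nuclear edge, and the study asked whether its loss leads to misexpression of genes without CpG islands. Right kidneys were pulverized whole, so the RNA mixes all segments of the nephron with vessels and other cells. There were 3 LBR-null mice, called 4001, 4002 and 4007, and 1 WT mouse, 4009. Mouse 4002 gave 1 library and the other mice gave 2 each, 7 libraries in all. Values are normalized counts, that is, reads on a gene scaled by each library's DESeq2 size factor. Libraries of one mouse were averaged, and mice were the replicates.

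The distal convoluted tubule follows the thick ascending limb and reabsorbs sodium chloride through the thiazide-sensitive NaCl cotransporter NCC. Its cells also take up magnesium through the channel TRPM6, and its later part and the connecting tubule take up calcium through TRPV5, with calbindin carrying it across the cell. From the late distal tubule onward, sodium enters through the epithelial sodium channel ENaC, built from α, β and γ subunits. Aldosterone drives this sodium uptake through the mineralocorticoid receptor, and 11β-hydroxysteroid dehydrogenase type 2 keeps glucocorticoids from occupying that receptor.

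Because the study turned on CpG islands, the bases just before the transcription start are shown for the members with the largest differences (Pvalb and Trpm6), for the NaCl cotransporter gene and for the ENaC β and γ subunit genes. Each is a stretch of 250 bases upstream of a RefSeq start (GRCm38.p6), written 5′ to 3′ on the gene's strand, with every CpG dinucleotide (CG, which reads the same on both strands) in capitals. Positions are those of the single exact match in mm9, the build of the deposited data.
Pvalb, chr15:78036831-78037080, minus strand: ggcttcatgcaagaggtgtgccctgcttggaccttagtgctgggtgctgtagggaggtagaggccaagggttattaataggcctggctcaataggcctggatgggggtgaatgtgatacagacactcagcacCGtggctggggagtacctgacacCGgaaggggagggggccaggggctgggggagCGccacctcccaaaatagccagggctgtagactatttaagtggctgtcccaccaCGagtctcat
Trpm6, chr19:18823970-18824219, plus strand: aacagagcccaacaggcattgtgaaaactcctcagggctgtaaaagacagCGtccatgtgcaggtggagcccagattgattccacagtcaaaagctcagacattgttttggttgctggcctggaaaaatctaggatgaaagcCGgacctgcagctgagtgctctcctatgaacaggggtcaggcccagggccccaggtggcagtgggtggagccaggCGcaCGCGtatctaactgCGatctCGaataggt
Slc12a3, chr8:96852858-96853107, plus strand: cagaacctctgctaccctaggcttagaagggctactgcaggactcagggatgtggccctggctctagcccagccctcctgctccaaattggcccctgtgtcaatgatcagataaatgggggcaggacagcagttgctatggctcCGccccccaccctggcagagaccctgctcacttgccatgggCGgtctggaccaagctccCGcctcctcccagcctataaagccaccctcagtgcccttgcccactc
Scnn1b, chr7:129008302-129008551, plus strand: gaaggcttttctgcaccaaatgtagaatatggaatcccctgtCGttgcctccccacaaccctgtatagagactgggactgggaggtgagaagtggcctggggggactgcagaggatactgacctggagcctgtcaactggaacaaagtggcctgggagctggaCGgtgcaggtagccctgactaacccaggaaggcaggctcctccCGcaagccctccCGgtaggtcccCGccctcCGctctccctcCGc
Scnn1g, chr7:128877743-128877992, plus strand: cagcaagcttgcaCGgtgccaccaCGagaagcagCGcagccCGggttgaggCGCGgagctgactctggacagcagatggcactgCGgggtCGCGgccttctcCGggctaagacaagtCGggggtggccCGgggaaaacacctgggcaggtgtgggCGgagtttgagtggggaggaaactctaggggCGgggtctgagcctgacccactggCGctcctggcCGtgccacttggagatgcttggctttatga

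Of the 32851 windows of this length in the RefSeq table, 92.1% held at least 1 CpG, and the median was 6, with quartiles of 2 and 16. The window of Slc12a3 held 3 CpG, that of Pvalb 4, and those of Trpm6 and Scnn1b 7 each, whereas the window of Scnn1g held 16. Trpv5 was lowest, with 1 CpG. A GC content of at least 50% together with an observed over expected CpG ratio above 0.6 was met by 31.0% of all windows. Among the 8 windows of the 7 members in the table, 3 met it, those of Scnn1g and Nr3c2 and a second Pvalb start with 23 CpG. The first Pvalb start, shown above, had an observed over expected ratio of 0.198 and Trpm6 one of 0.383, so the windows shown for both members with the largest differences were below the criterion. The study defined its classes otherwise. It combined islands found by sequence with regions bound by CxxC domains, and genes without islands had to lack both through the gene body. These windows therefore do not give the class of a gene in the study. Scnn1a, Calb1 and Hsd11b2 have no window in the table.

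Libraries held 20694016 to 26333284 reads on genes, and 1 read was worth 0.787 to 1.15 normalized counts. Lbr itself was at 330, 314, 340, 495 and 448 in the LBR-null libraries and at 416 and 381 in the WT libraries. These groups overlap, so the level of the transcript does not check the genotype labels. Mouse 4001 stood apart from the other LBR-null mice in the skeletal muscle and podocyte markers given below. Its sex-linked reads were mixed, as were those of mouse 4007. Mouse 4001 had reads of Xist, the transcript of the inactive X (5352 and 6218), together with some of the Y-linked gene Ddx3y (149 and 133). Mouse 4007 had more Xist (10163 and 9718) and less Ddx3y (49.4 and 39.2), while mouse 4002 and the WT mouse had little Xist (31.7 to 65.3) and high Ddx3y (1269 to 1516). Xist and Y-linked reads thus stood together in the libraries of mice 4001 and 4007, and whether these libraries hold RNA of another animal or tissue was not tested, so their values may not be those of 1 kidney alone. The labels give no sex, and in both mice a difference of sex from the WT mouse and one of genotype cannot be told apart. The sum of 7 skeletal muscle markers was 861 in mouse 4001 and 74.9 to 125 in the other mice, and the sum of 5 podocyte markers was 8306 against 15286 to 19926. Among other cells, all 5 adipocyte markers and 6 of 7 macrophage markers were below WT in every LBR-null library, 6 of 7 neutrophil markers were above it, and all 5 endothelial markers overlapped. Counts of the distal genes are therefore given with and without mouse 4001 where this changes them.

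The surroundings of the distal tubule also differed between the genotypes. Proximal tubule markers summed to 46444 to 55392 normalized counts in the LBR-null libraries and to 134204 and 136065 in the WT libraries, and 8 of 9 were below WT in every LBR-null library. Slc34a1, the phosphate cotransporter and the highest of them in WT, was at 64099 in the WT mouse and 14334, 29136 and 19644 in mice 4001, 4002 and 4007. Slc5a12, a lactate cotransporter, was the exception, at 7742 to 14905 in the LBR-null libraries and 4507 and 4653 in WT. Markers of the neighbouring distal segments overlapped more. Of 6 thick ascending limb markers, 1 was above and 1 below WT in every LBR-null library (2 below without mouse 4001), and the sums were 62776 to 149418 against 76682 and 78270. All 5 principal cell markers overlapped, with sums of 25136 to 50015 against 29738 and 29833. These sums were largely Aqp2, at 17832 to 35005 in the LBR-null libraries. Aqp4, Avpr2 and Fxyd4 were below WT in mice 4001 and 4007 and above it in mouse 4002, while Aqp2 and Aqp3 were above WT in mice 4001 and 4002. Of 7 intercalated cell markers, 2 were above and 2 below, or 3 above without mouse 4001. All these marker counts can be read against 25.5% of all tested genes above WT and 25.7% below it in every LBR-null library, or 35.7% and 35.3% without mouse 4001. Size factors make the counts relative to the other genes of a library, and the part that the lower proximal tubule reads play in the values of the distal genes was not tested. In a whole kidney, fewer cells of a type and less RNA per cell cannot be told apart.

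All 10 members were among the 17283 genes with a mean of at least 5 normalized counts, which were tested. Pvalb was at least 2-fold lower in the LBR-null average, and Trpm6 and Scnn1a were at least 2-fold higher. Among all tested genes, 7.04% were at least 2-fold lower and 14.5% at least 2-fold higher, and these 1 of 10 and 2 of 10 members can be read against those shares. In every LBR-null library, Pvalb and Calb1 lay below both WT libraries and Trpm6, Scnn1a and Scnn1b lay above them, while Slc12a3, Trpv5, Scnn1g, Nr3c2 and Hsd11b2 overlapped with WT. Of all tested genes, 25.7% lay below and 25.5% above in this way. With mouse 4001 left out, Slc12a3 and Trpv5 also lay below WT, which made 4 members below, against 35.3% of all genes below and 35.7% above in the remaining libraries. In mouse 4002 alone, whose sex-linked genes were most like those of the WT mouse, Pvalb, Calb1 and Trpv5 were at least 2-fold lower, 3 members, and Trpm6 and Scnn1a at least 2-fold higher, against 7.2% and 11.8% of all genes in that comparison. Its library lay below both WT libraries for 5 members and above for 5, against 44.3% and 46.4% of all genes. The median log2 fold change of the members was -0.24, with mouse medians of 0.23, -0.18 and -0.17 for 4001, 4002 and 4007, and that of all tested genes was 0.0073.

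**Figure D1:**
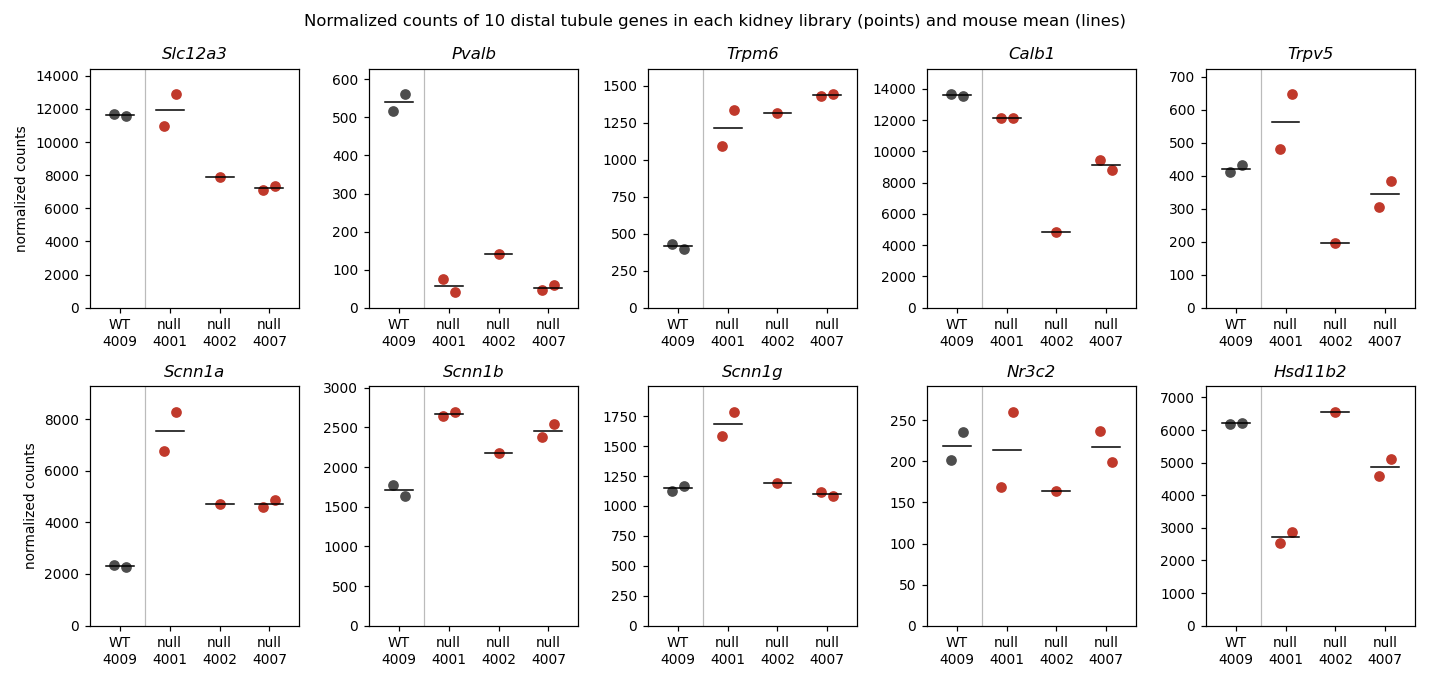
Normalized counts of the 10 members (y axis, from 0, separate for each gene) in the WT mouse and the LBR-null mice 4001, 4002 and 4007 (x axis). Points are libraries and lines are mouse means. Pvalb was at 40.8 to 141 in the LBR-null libraries against 517 and 561 in WT, and Trpm6 at 1092 to 1442 against 429 and 398.

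In limma (eBayes with a trend on log2(normalized counts + 1), Benjamini-Hochberg adjustment over all tested genes), no gene met both an adjusted p under 0.05 and a 2-fold change, and the share called was 0%. Without adjustment, 8.05% of genes were lower and 10.7% higher at p under 0.05. Of the members, Pvalb was lower and Trpm6 and Scnn1a were higher at that unadjusted level. edgeR's quasi-likelihood test on the recovered reads called none of the members, and it called 0.156% of all genes lower and 0.00579% higher. DESeq2, the tool the study used for such tests, called Pvalb lower and Trpm6 and Scnn1a higher, against 3.48% and 3.24% of the genes to which it gave an adjusted p. These fits assume that WT mice would vary as the LBR-null mice do, which 1 WT mouse cannot show. Over the alternatives listed in the closing section, the adjusted p ran from 0.00059 to 0.27 for Pvalb, from 6.2e-06 to 0.24 for Trpm6 and from 0.013 to 0.33 for Scnn1a.

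Slc12a3 encodes NCC, the defining sodium transporter of the distal convoluted tubule. The gene spans 96853092 to 96890113 on chromosome 8 (mm9, as for all positions). Counts were 10949.7 and 12891 in mouse 4001, 7919 in mouse 4002, 7078 and 7355 in mouse 4007, and 11699 and 11567 in the WT mouse. Mouse 4001 was level with WT and the other LBR-null mice were below it. The log2 fold change was -0.40 ± 0.38 (SE), with an adjusted p of 0.62 in limma. Without mouse 4001 it was -0.62, with an adjusted p of 0.17. Per kilobase of exons, Slc12a3 had the highest level of the 10 members in the WT mouse, 3518 normalized counts per kb, and was at 2727 ± 767 (SD, n = 3) in LBR-null mice. It exceeded Hsd11b2 in mouse 4001 (3605 against 1468 per kb) and lay below it in mice 4002 (2395 against 3551) and 4007 (2182 against 2636).

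Pvalb encodes parvalbumin, a cytosolic calcium-binding protein that in the kidney marks the early part of the distal convoluted tubule. It lies on chromosome 15 from 78021544 to 78036830. Normalized counts were 74.6 and 40.8 in mouse 4001, 141 in mouse 4002, 45.6 and 60.2 in mouse 4007, and 517 and 561 in the WT mouse. The groups did not overlap, and the highest LBR-null library was well under the lower WT library. The mean was 83.9 ± 49.5 (SD, n = 3) against 539, which is 6.43-fold lower. The log2 fold change was -2.82 ± 0.60 (SE), the largest of the members, with an adjusted p of 0.11 in limma, 0.11 in edgeR and 0.00059 in DESeq2. Leaving out mouse 4001 gave -2.63 (limma, adjusted p of 0.035) and leaving out mouse 4007 gave -2.56 (adjusted p of 0.27).

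Parvalbumin is also abundant in fast skeletal muscle, so the muscle markers were read beside it. Ckm, the muscle creatine kinase, was at 622 and 536 in the libraries of mouse 4001 and at 4.52 to 33.9 in all others, including WT. Acta1, skeletal actin, was at 196 and 186 in mouse 4001 and 0.905 to 10.2 elsewhere. Myh1, a fast myosin heavy chain, was instead highest in mouse 4007, at 6.89 to 26.1 in the LBR-null libraries and 0 and 2.71 in the WT libraries, and Myh4, another, was at 7.99 to 19.6 against 0.787 and 0. Of the 7 muscle markers, Myh1, Myh4 and Mylpf were above WT in every LBR-null library, the other 4 overlapped and 0 were below. The part of muscle reads in the Pvalb values was not tested.

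Trpm6 encodes the apical magnesium channel of the distal convoluted tubule, a channel fused to a protein kinase. It lies on chromosome 19 from 18824473 to 18967000. The LBR-null libraries held 1092 and 1332 normalized counts for mouse 4001, 1315 for mouse 4002, and 1429.6 and 1442 for mouse 4007, whereas the WT libraries held 429 and 398. All LBR-null libraries were more than 2-fold above both WT libraries, and the 3 mice lay close together. The mean was 1321 ± 112 (SD, n = 3) against 414, a ratio of 3.19. The log2 fold change was 1.67 ± 0.24 (SE), with an adjusted p of 0.082 in limma, 0.076 in edgeR and 6.2e-06 in DESeq2. It was 1.73 without mouse 4001, 1.67 without mouse 4002 and 1.61 without mouse 4007. Leaving out mouse 4007 gave the highest adjusted p of the range given above.

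Ratios of Pvalb and Trpm6 to Slc12a3, the marker of the same segment, do not depend on the scaling of a library. The ratio of Pvalb to Slc12a3, both per kb of exons, was 0.147 in the WT mouse and 0.0154, 0.0566 and 0.0233 in mice 4001, 4002 and 4007. All 5 LBR-null libraries were below both WT libraries. The ratio of Trpm6 to Slc12a3 was 0.0181 in the WT mouse and 0.0517, 0.0844 and 0.101 in the same mice, above WT in all 5 libraries. The means were thus 4.64-fold lower for Pvalb and 4.38-fold higher for Trpm6. An exact permutation test of 3 mice against 1 has 4 arrangements and cannot go below p = 0.25 (one-sided), the value reached by both ratios.

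**Figure D2:**
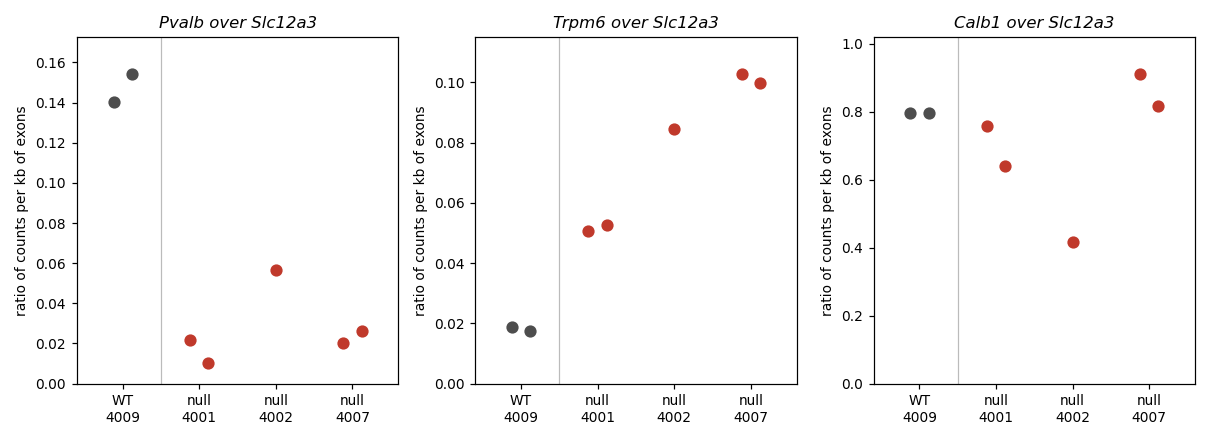
Ratio of Pvalb, Trpm6 and Calb1 to Slc12a3, each in normalized counts per kb of exons (y axis, from 0), in every library (points) of the WT mouse and the LBR-null mice (x axis). Pvalb over Slc12a3 was at 0.147 in WT and at most 0.0566 in LBR-null libraries, Trpm6 over Slc12a3 was at 0.0186 or less in WT and at least 0.0507 in LBR-null libraries, and Calb1 over Slc12a3 overlapped.

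Calb1 encodes calbindin-D28K, which buffers and carries calcium through the cells of the late distal convoluted tubule and connecting tubule. It lies on chromosome 4 from 15808411 to 15835211. Values were 12161 and 12112 in mouse 4001, 4848 in mouse 4002, 9444 and 8802 in mouse 4007, and 13659.9 and 13526 in the WT mouse. Every LBR-null library was below WT, by little in mouse 4001 and by most in mouse 4002. The mean of 8703 ± 3662 (SD, n = 3) had a log2 fold change of -0.74 ± 0.52 (SE), with an adjusted p of 0.49 in limma. It was -0.37 without mouse 4002 and -1.03 without mouse 4001. The ratio of Calb1 to Slc12a3 per kb was 0.797 in the WT mouse and 0.695, 0.418 and 0.863 in mice 4001, 4002 and 4007, so that LBR-null mice lay on both sides of WT.

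Trpv5 encodes the apical calcium channel of the same cells. It lies on chromosome 6 from 41602172 to 41630768. Its counts were 480.0 and 647 in mouse 4001, 197 in mouse 4002, 306 and 383 in mouse 4007, and 411 and 432 in the WT mouse. Mouse 4001 was above WT and the other LBR-null mice below it. The log2 fold change was -0.32 ± 0.55 (SE), with an adjusted p of 0.80 in limma, and it was 0.06 without mouse 4002 and -0.69 without mouse 4001. The ratio of Trpv5 to Calb1 per kb was 0.0694, 0.0607 and 0.0564 in mice 4001, 4002 and 4007 and 0.0463 in the WT mouse, with all 5 LBR-null libraries above WT (exact permutation p = 0.25, one-sided, the smallest possible).

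**Figure D3:**
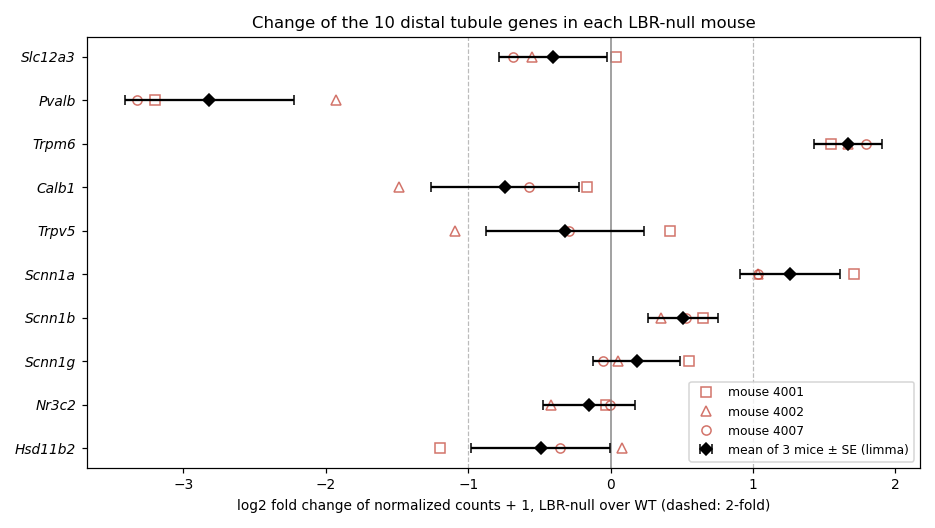
Log2 fold change of normalized counts + 1, LBR-null over WT (x axis), for the 10 members (y axis). Open symbols are single LBR-null mice against the WT mouse, black diamonds with bars are the limma mean of 3 mice ± SE, and dashed lines mark a 2-fold difference. Pvalb (-2.82), Trpm6 (1.67) and Scnn1a (1.26) lie beyond 2-fold, and mouse 4002 stands lowest for Calb1 and Trpv5.

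The ENaC subunits differed from each other. Scnn1a encodes the α subunit, which the channel needs to reach the membrane, and lies on chromosome 6 from 125271358 to 125294958. It was at 6772 and 8268 in mouse 4001, 4707 in mouse 4002, 4576 and 4847 in mouse 4007, and 2337 and 2261 in the WT mouse. No LBR-null library overlapped with WT, and mouse 4001 was the highest. The mean was 5646 ± 1623 (SD, n = 3), 2.46 times WT, or 2.05 times without mouse 4001. The log2 fold change was 1.26 ± 0.35 (SE), with an adjusted p of 0.14 in limma, 0.17 in edgeR and 0.024 in DESeq2. Without mouse 4001 it was 1.03 and without mouse 4002 it was 1.37. The highest adjusted p of the range given above for Scnn1a came without mouse 4007.

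Scnn1b, the gene of the β subunit, and Scnn1g, that of the γ subunit, follow each other on chromosome 7, from 129008591 to 129062029 and from 128877993 to 128911989. Scnn1b was at 2647 and 2693 in mouse 4001, 2183 in mouse 4002, 2381 and 2539 in mouse 4007, and 1779.7 and 1633 in the WT mouse. These libraries did not overlap either, but the ratio of the means was only 1.43, with a log2 fold change of 0.51 ± 0.25 (SE) and an adjusted p of 0.33 in limma. Scnn1g was at 1582 and 1785 in mouse 4001, 1191 in mouse 4002, 1120.4 and 1086 in mouse 4007, and 1128 and 1168 in the WT mouse. Mouse 4001 was above WT and the other LBR-null mice were level with it. Its log2 fold change was 0.18 ± 0.31 (SE), with an adjusted p of 0.79 in limma, and -0.0019 without mouse 4001. Cog7 overlaps Scnn1b on the other strand in the annotation, as Gm10649 does Nr3c2, and whether the reads were counted by strand is not given in the sources used here.

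Per kilobase of exons, the WT mouse had 658 normalized counts for Scnn1a, 658 for Scnn1b and 384 for Scnn1g. In LBR-null mice the levels per kb were 1615 ± 464, 941 ± 94.2 and 443 ± 105 (SD, n = 3). Scnn1a was therefore level with Scnn1b in WT and above it in each LBR-null mouse, with ratios of 2.09, 1.60 and 1.42 in mice 4001, 4002 and 4007 against 0.999. The ratio of Scnn1a to Scnn1g was 3.82, 3.38 and 3.65 in these mice, a mean of 3.62 ± 0.22 (SD, n = 3), against 1.71 in the WT mouse. Mouse 4001, whose subunits were all the highest, had a ratio close to those of the other LBR-null mice. All 5 LBR-null libraries were above both WT libraries for both ratios, with the smallest possible exact permutation p of 0.25 (one-sided). Scnn1b over Scnn1g was 2.17 ± 0.37 (SD, n = 3) against 1.72, and 4 of 5 LBR-null libraries were above WT.

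**Figure D4:**
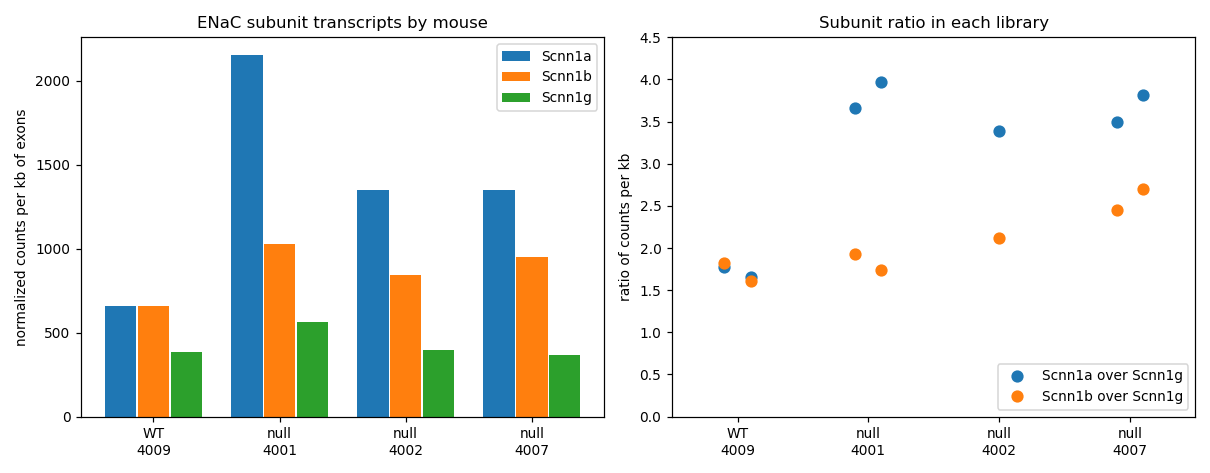
Left, normalized counts per kb of exons (y axis, from 0) of the 3 ENaC subunit genes (bars) in each mouse (x axis). Right, ratio of Scnn1a and of Scnn1b to Scnn1g in every library (points). Scnn1a over Scnn1g was 1.66 and 1.77 in the WT libraries and 3.38 to 3.96 in the LBR-null libraries.

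Nr3c2 encodes the mineralocorticoid receptor and lies on chromosome 8 from 79423341 to 79768911. It had the lowest level per kb of the members, 33.8 normalized counts per kb in WT and 30.7 ± 4.72 (SD, n = 3) in LBR-null mice. Its counts were 169 and 260.0 in mouse 4001, 163 in mouse 4002, 237 and 199 in mouse 4007, and 202 and 236 in the WT mouse. The libraries of a single mouse differed as much as the genotypes did, and the log2 fold change was -0.15 ± 0.32 (SE), with an adjusted p of 0.84 in limma.

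Hsd11b2 encodes the enzyme that inactivates glucocorticoids in aldosterone-responsive cells and lies on chromosome 8 from 108042646 to 108047884. It was at 2529.6 and 2886 in mouse 4001, 6552 in mouse 4002, 4606 and 5119 in mouse 4007, and 6196 and 6227 in the WT mouse. Mouse 4001 was lowest, at 0.436 of WT, and mouse 4002 was above WT. The log2 fold change was -0.49 ± 0.49 (SE), with an adjusted p of 0.64 in limma, and -0.14 without mouse 4001. Across the 7 libraries its counts ran against those of Scnn1g, with a Pearson r of -0.86 on the log2 scale, a description over libraries of 4 mice, of which 3 mice gave 2 libraries each.

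Of 12 genes of NaCl cotransporter regulation and distal convoluted tubule identity, 3 were above and 2 below WT in every LBR-null library, and 1 was at least 2-fold higher, Klhl3. Without mouse 4001 the counts were 4 above and 3 below, and without mouse 4002 they were 6 above and 2 below. The shares of all tested genes were 25.5% above and 25.7% below with all mice 35.7% and 35.3% without mouse 4001, and 29.7% and 29.6% without mouse 4002, and the counts of the lists that follow can be read against the same shares. None of the 12 was called by limma, edgeR or DESeq2, and Emx1 (lower) was the 1 gene with an unadjusted p under 0.05 in limma. Klhl3, an adaptor that marks WNK kinases for degradation, was at 179 to 461 against 150 and 124, a ratio of 2.01, or 1.58 without mouse 4001. Emx1, a homeobox gene, was at 756 to 954 against 1380.5 and 1314. Among the kinases that switch NCC on, Wnk1 had a log2 fold change of 0.0051 ± 0.33 and Wnk4 one of 0.28 ± 0.35 (SE), both overlapping with WT through mouse 4001. In the other LBR-null libraries Wnk1 was below WT, at a log2 fold change of -0.14, and Wnk4 above it, at 0.49. Stk39, the SPAK kinase that phosphorylates NCC, was at 1764 to 2231 in the LBR-null libraries, above the WT values of 1393 and 1440.2, with an adjusted p of 0.34 in limma.

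Among 12 genes of magnesium handling, 5 were below and 3 above WT in every LBR-null library, and DESeq2 called none. Slc41a3, a magnesium transporter relative, was also below without mouse 4001, which made 6. Trpm7, the ubiquitous relative and partner of Trpm6, was at 3315 to 5634 against 2747 and 2729, a ratio of 1.78. Egf, a hormone that acts on TRPM6 and is made in the distal tubule, was at 28979 to 77392 against 26217 and 26512, with mouse 4001 far above the others. Values below WT were found for Cnnm2, Fxyd2 and Pcbd1, among others. Cnnm2, a basolateral magnesium transport protein, was at 255 to 419 against 542 and 505, with a log2 fold change of -0.83 ± 0.29 (SE) and an adjusted p of 0.20 in limma. Fxyd2, the γ subunit of the sodium pump, was at 28345 to 53796 against 65295 and 65682, a log2 fold change of -0.71 ± 0.53. Pcbd1, a pterin dehydratase that also acts as a transcription cofactor, was at 2583 to 4018 against 6133 and 6118, and Kcna1, a potassium channel of the distal convoluted tubule, was at 34.6 to 67.4 against 22.0 and 24.4. Fxyd2 and Pcbd1 are also transcribed in the proximal tubule, whose markers were lower as given above, and the part of that difference was not tested.

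Of 13 genes of calcium handling, 6 were below and 3 above WT in every LBR-null library, and DESeq2 called 2 lower, Kl and Slc8a1, and 1 higher, Cyp24a1, against 3.48% and 3.24% of all genes. Without mouse 4001, Atp2b2, a calcium pump, was also above, which made 4, while 5 were above without mouse 4002. Without mouse 4001, limma called Kl and Slc8a1 lower and Cyp27b1 higher, against 3.83% and 2.94% of all genes. Kl encodes Klotho, the coreceptor for FGF23 that is made in distal and proximal tubules. It was at 1940.5 to 2707 in the LBR-null libraries and 11579 and 11720.5 in WT, 4.95-fold lower, with an adjusted p of 0.068 in limma and 9.1e-11 in DESeq2. Slc8a1, the basolateral sodium-calcium exchanger, was at 1837 and 2445 in mouse 4001, 1532 in mouse 4002, 1425 and 1336 in mouse 4007, and 3813 and 4015 in the WT mouse. Its log2 fold change was -1.24 ± 0.31 (SE), with an adjusted p of 0.12 in limma and 0.023 in DESeq2. The pump Atp2b1 was nearly level, at 2383 to 2767 against 2835 and 2928. S100g, the smaller calbindin, was at 26613 to 55167 against 22988 and 23491, opposite in direction to Calb1. Klk1, tissue kallikrein of the connecting tubule, was at 38317 to 50347 against 79939 and 83179, although reads may be shared with close family members. Among the vitamin D enzymes, Cyp24a1, which degrades the hormone, was at 1237, 802 and 2610 in mice 4001, 4002 and 4007 against 343 in the WT mouse, 2.34 to 7.61 times WT. Its log2 fold change was 1.999, or 1.54 without mouse 4007, the highest. Cyp27b1, which makes the hormone, was at 366, 1080 and 642 in the same mice against 259, or 1.41 to 4.16 times WT. Both enzymes are made largely outside the distal tubule.

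Among 17 genes of the aldosterone response and ENaC regulation, 9 were above and 1 below WT in every LBR-null library, and DESeq2 called 4 higher and 0 lower, against 3.24% and 3.48% of all genes. limma and edgeR called none, while 5 had a higher and 0 a lower level with an unadjusted limma p under 0.05, against 10.7% and 8.05% of all genes. Without mouse 4001, 2 were below, Prss8 in addition, and limma called Fkbp5, Zbtb16 and Tsc22d3 higher. Across all genes limma then called 2.94% higher and 3.83% lower. Fkbp5, a cochaperone of steroid receptors, was at 4266 to 7030 against 1025 and 996, a ratio of 5.86 and a log2 fold change of 2.52 ± 0.35 (SE), with an adjusted p of 0.080 in limma and 1.4e-08 in DESeq2. Zbtb16, a zinc finger repressor, was at 939 to 1393 against 219.7 and 209.9, a ratio of 5.21. Tsc22d3, the glucocorticoid-induced leucine zipper that acts on ENaC, was at 9791 to 13174 against 4612 and 4823, a ratio of 2.34, with an adjusted p of 0.12 in limma and 0.0021 in DESeq2. Tmprss2, a membrane serine protease, was the other gene called by DESeq2, with a ratio of 2.07. Fkbp5, Zbtb16 and Tsc22d3 also answer to glucocorticoids through Nr3c1, so their levels do not separate both receptors.

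Sgk1, the kinase that carries the aldosterone signal to ENaC, was at 8786 to 9937 in the LBR-null libraries and 8884 and 9111 in WT, with a log2 fold change of 0.04 ± 0.29 (SE). Nedd4l, the ubiquitin ligase that removes ENaC from the membrane, was at 3463 to 4515 against 3198 and 3118. Prss8, the protease prostasin that activates ENaC by cleavage, was at 4333 to 6491 against 6735 and 6438. Kcnj1, the potassium channel ROMK, was at 3848 to 7049 against 5079 and 5222. The aldosterone synthase gene Cyp11b2 had 1 read in 1 library and was listed at 0 in the others, and Cyp11b1 was at 3.44 in 1 library of mouse 4001 and listed at 0 in the others. Cyp11a1, the first enzyme of steroid synthesis, was at 0.905 to 8.20 and overlapped. The other adrenal markers Star and Mc2r were at 143 to 207 and 13.8 to 31.0 in the LBR-null libraries, above the WT values of 114 and 128 and of 5.51 and 10.9.

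Over the 4 lists, 8 of 54 genes were at least 2-fold higher and 2 were at least 2-fold lower, against 14.5% and 7.04% of all tested genes. Without mouse 4001 the count of higher genes was 5, since Klhl3, Kcna1 and Tmprss2 then lay between 1.58 and 1.93 times WT, and the count of lower genes was again 2, against 13.3% and 7.49% of all genes without that mouse. The median log2 fold changes of the lists were 0.20 for NaCl cotransporter regulation, -0.21 for magnesium, -0.20 for calcium and 0.29 for the aldosterone response. In mice 4001, 4002 and 4007 they were 0.29, 0.024 and 0.19 for NaCl cotransporter regulation, and -0.015, -0.26 and -0.45 for magnesium. For calcium they were -0.29, -0.36 and 0.25, so the sign differed between mice, and for the aldosterone response 0.38, 0.38 and 0.18.

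**Figure D5:**
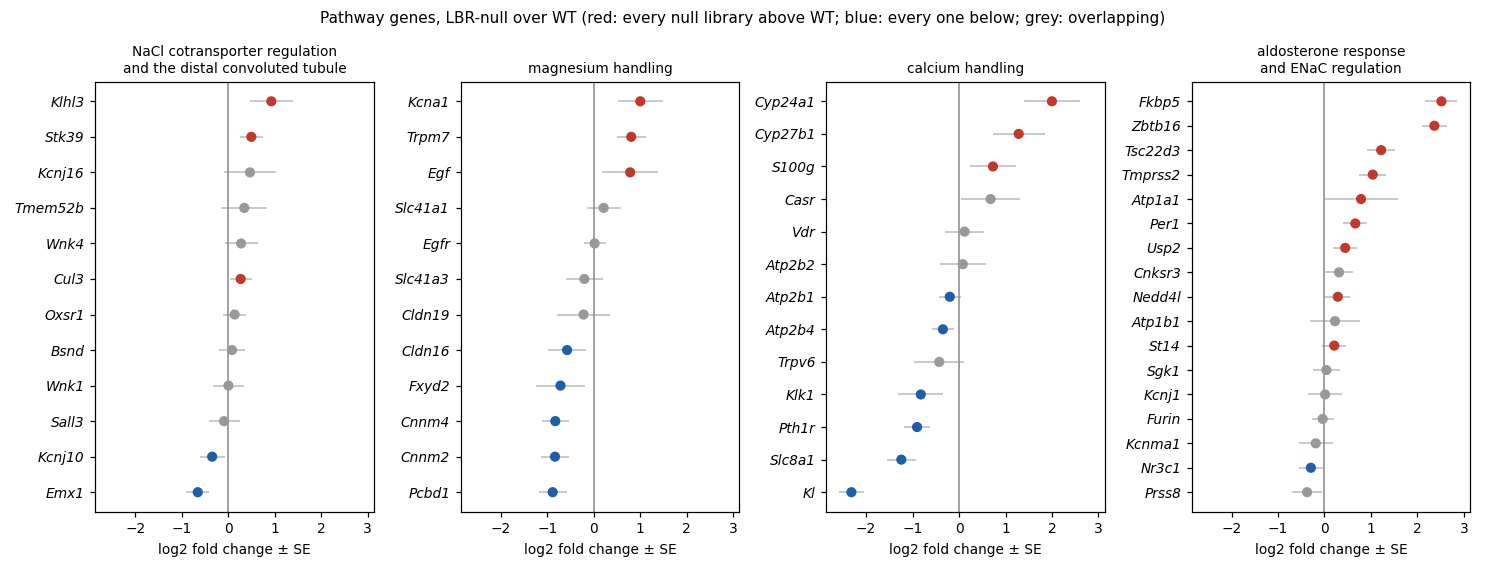
Log2 fold change ± SE (limma), LBR-null over WT (x axis), for the genes (y axis) of the 4 lists. Red marks genes with every LBR-null library above both WT libraries, blue those with every one below, and grey those that overlap. Kl (-2.32) lies furthest down and Fkbp5 (2.52) and Zbtb16 (2.36) furthest up.

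Transport genes of the segments on either side were compared as well. In the thick ascending limb, Slc12a1, the Na-K-2Cl cotransporter, was at 36536 to 71971 in the LBR-null libraries and 30436 and 31106 in WT, a log2 fold change of 0.82 ± 0.55 (SE) with an adjusted p of 0.48 in limma. Umod, uromodulin, was at 20181 to 67746 against 38008 and 38781, above WT in mouse 4001 and below it in the other LBR-null mice. In the collecting duct, the water channel gene Aqp2 was at 17832 to 35005 against 19900.0 and 19659, a ratio of the means of 1.37. The other principal cell markers went both ways. Aqp3 had a ratio of 1.59, and Aqp4, Avpr2 and Fxyd4 had ratios of 0.70, 0.74 and 0.90, all overlapping with WT.

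Across the 7 libraries, the genes with the pattern most like Slc12a3 on the log2 scale were Ptgfrn (Pearson r of 0.999), Man1b1, Arcn1, Lama4 and Opa1 (r of 0.992), among 13065 genes with a mean of at least 50. For Scnn1g they were Pafah1b1, Cpd, Nov, Sec14l1 and Acbd5, with r from 0.990 to 0.994. With 7 libraries from 4 mice and so many genes, these values are a description only.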

How the data were processed

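Kidney RNA-seq libraries were used (poly(A) RNA, paired-end reads of 150 bases). Per the labels and the study's methods, STAR 2.6.0 and the mm9 genome were used for alignment, and the authors deposited a signal per gene, namely the read counts scaled by DESeq2 1.25.1 size factors. The counting program, annotation and strand setting are not given in the sources used here. All values (100%) were whole multiples of 1 read within 0.01 read, so reads were recovered by division. Size factors assume that most genes do not differ, so values are relative to the rest of the library.

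Libraries were averaged per mouse (3 LBR-null mice against 1 WT mouse). limma 3.58.1 (R 4.3.3, eBayes with a trend) used log2(normalized counts + 1) of genes averaging 5 or more. Calls needed a Benjamini-Hochberg adjusted p under 0.05 and a difference of at least 2-fold. The pseudocount of 1 understates the fold of low genes. edgeR 4.0.16 and DESeq2 1.42.0 were run on recovered reads summed per mouse, and the fits were tested on simulated data. Libraries of a mouse differed by more than sampling noise (mean chi-square per gene 2.59 to 16.0, where 1 is sampling noise) and were kept as separate libraries. No source says whether they came from separate aliquots.

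Members, lists and tests were chosen with earlier results of these data known. The genes named were all members, a fixed set of regulators and segment markers, the 3 genes of each list with the largest difference among those not overlapping with WT, the highest gene of marker lists, and the genes most like Slc12a3 and Scnn1g. Ckm, Acta1, Myh1, Myh4, Mylpf, Slc41a3, Atp2b2, Xist, Ddx3y, Slc5a12, Trpm7, Mc2r, Cyp11a1, Tmprss2, Aqp3, Aqp4, Avpr2 and Fxyd4 were named after their values were seen. A few other genes are not reported here and enter no list or count of a list. Gene positions are those of GENCODE vM1 (mm9). Promoter sequences are from RefSeq (GRCm38.p6), for 7 of 10 members.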

Additional observations from a re-analysis of the deposited data

Results flagged for a closer look

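Of 37 genes examined, members included, 3 had a library far from the other 4 LBR-null libraries by Dixon's test, which chance alone flags in about 1 of 20 groups, and libraries of a mouse are not independent. None of the 10 members was among them. Cnnm2 was at 419 in the second library of mouse 4001 and at 255 to 281 in the other LBR-null libraries. Nedd4l was at 4515 in mouse 4002 and at 3463 to 3607 in the others. Fkbp5 was at 4266 in mouse 4002 and at 6535 to 7030 in the others, and was above both WT libraries in each.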

How the results depend on the processing

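Each member was recomputed under 16 alternatives with a test, and of 160 values 143 kept their direction and side of the threshold, 14 passed the threshold as well (Pvalb, Trpm6 and Scnn1a) and 3 changed sign. Of 591 such values for all 37 genes examined, 535 were kept and 14 changed sign. A further alternative, mouse 4002 alone against the WT mouse, has no test, and 1 of 10 members and 3 of 37 genes changed sign in it. The count of members at least 2-fold higher was 2 under all 17 alternatives, and that of members at least 2-fold lower was 1 under all but mouse 4002 alone. That comparison gave 3 lower, against 7.2% of all genes, and 5 members below both WT libraries and 5 above, against 44.3% and 46.4%. Leaving out 1 LBR-null mouse in turn gave 2 to 4 members below WT, 4 of them without mouse 4001, a median over the members of -0.24 to 0.024, the latter without mouse 4002, and 0 to 1163 genes called by limma, the most without mouse 4001 and 625 without mouse 4002. The WT mouse could not be left out. The count of aldosterone response genes below WT, 1 as reported, was 2 with either other scaling or with 1 WT library, and 3 with the first library of each mouse only.

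limma called 1 gene with a mean of at least 50 and 1 with the second WT library only, edgeR called 28 and DESeq2 called 1117, and none of the other scalings, pseudocounts or filters gave a call. With libraries as units and the correlation within a mouse estimated (0.741), limma called 847 genes without a replicate block. With the library number as a replicate block, which leaves out mouse 4002, it called 1313, the median over the members was 0.010, Trpv5 was at 0.053 and Kcnj1 at -0.019 on the log2 scale. Pvalb, Trpm6 and Scnn1a passed the threshold in both. The number is that of libraries of 1 mouse and does not pair mice.

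Of the genes whose log2 fold change turned its sign, Trpv5 ranged from -0.69 to 0.065, Scnn1g from -0.0019 to 0.30, Wnk1 from -0.14 to 0.091, Kcnj1 from -0.17 to 0.23 and Umod from -0.62 to 0.22 on leaving out a mouse. For mouse 4002 alone, Hsd11b2 was at 0.077, Wnk1 at -0.17 and Sgk1 at -0.034. TMM scaling gave Wnk1 -0.024 and Kcnj1 -0.016, the second WT library only gave -0.0043 and -0.0066, the first library of each mouse only gave Wnk1 -0.030, and DESeq2 gave Umod 0.0020. The members had 40.8 normalized counts or more in every library. The cause of these changes was not tested.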
